A study of Mus musculus with 12 samples.

Results

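Integrins are the receptors through which a cell holds on to matrix and to other cells, and the members described here are the mouse integrin genes together with the talins, kindlins, adaptors and kinases that tie integrin tails to actin at focal adhesions. They were taken by name, as the protein-coding genes named Itga or Itgb with a number or letters after it, without Itgax, plus Tln1, Tln2, Vcl, Fermt2, Fermt3, Pxn, Zyx, Ptk2, Ptk2b, Ilk, Parva and Parvg. This gave 43 gene IDs of the 49585 in the count table, of which 31 carry an integrin name and 12 are adaptors or kinases. They stand for 42 symbols, because 2 IDs are named Itgam. Of the 43 members, 41 had enough counts for a test, and Itgb6 and Itgb2l did not.

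RNA was sequenced from nuclei of the mouse spinal cord at 3, 7 and 14 days after spinal cord injury and after a sham operation, with 3 libraries in each group. All animals were of the strain C57BL/6, and the sham libraries carry the label of 7 days, so sham is not a start of the time course. Each library pooled cord tissue around the lesion from 3 animals, and nuclei that carried green fluorescent protein (GFP) were pulled out on magnetic beads through an anti-GFP antibody. The labels call these nuclei microglia-specific and do not name the promoter or line that drives GFP, the sex or the age. Libraries of a group are separate pools by label, with no statement on separate litters or days, so the p-values measure the spread between these pools.

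An integrin is a pair of an alpha and a beta chain. Talin and kindlin bind the tail of the beta chain and switch the receptor to a form that holds its ligand, and vinculin, paxillin, the ILK-parvin complex and focal adhesion kinase then join the contact, linking it to actin and to signalling. Microglia, the resident macrophages of the cord, carry the leukocyte beta chain Itgb2 with Itgam as complement receptor and phagocytic receptor, and integrins of several ligand classes are used by these cells to survey, migrate and engulf.

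Total counts ranged from 4003480 to 10670804 per library, and the members together took 3753 to 3992 CPM (counts at an equal total per library) at 3 days, 3608 to 4282 CPM at 7 days, 3410 to 3656 CPM at 14 days and 3301 to 3340 CPM in sham. All 12 defining microglial markers had counts in every library, and their sum was 3399 to 4075 CPM at 3 days, 4617 to 5832 CPM at 7 days, 3861 to 4775 CPM at 14 days and 5190 to 6646 CPM in sham. Other cells left RNA as well. The sum of 12 endothelial markers was 242 to 556 CPM at 3 days, 49.2 to 63.0 CPM at 7 days, 356 to 362 CPM at 14 days and 41.8 to 159 CPM in sham. Sham replicate 4 stood apart from the other two sham libraries, with 159 CPM of endothelial, 489 CPM of fibroblast and pericyte and 5373 CPM of astrocyte markers. Markers of neutrophils, platelets and T or NK cells summed to at most 27 CPM in any library. In these bulk libraries, fewer cells of a type and less RNA per cell cannot be told apart.

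All CPM, those above and those below, are also scaled by composition factors (TMM), and they are used to follow a gene across libraries. Values of a group stand in the order of its replicate numbers, which are 1, 2 and 3 at 3 and 14 days, 1, 3 and 4 at 7 days and 2, 3 and 4 in sham. Log2 fold changes are given ± SE from edgeR's quasi-likelihood test over all 12 libraries, and adjusted p-values are its p-values after Benjamini-Hochberg adjustment over 18451 genes, with a threshold of 0.05. RPKM, the authors' deposited values scaled by gene length and library total, are used wherever one gene is set beside another.

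Promoters of 28 of the 42 symbols were found in RefSeq's table for GRCm38.p6, each 250 bases before to 50 bases after the start. The 4 members Tln1, Itga5, Vcl and Fermt2 were all lower at 7 than at 3 days past the threshold. Tln1 and Itga5 were also higher at 3 days than in sham. The promoters of these 4 members are shown here. They lie on GRCm38.p6 at chr4:43562534-43562833 on the minus strand (Tln1), chr15:103366742-103367041 on the minus strand (Itga5), chr14:20929148-20929447 on the plus strand (Vcl) and chr14:45530016-45530315 on the minus strand (Fermt2). Capitals mark the matches to the motifs searched, read 5′ to 3′ on the gene's strand.
Tln1: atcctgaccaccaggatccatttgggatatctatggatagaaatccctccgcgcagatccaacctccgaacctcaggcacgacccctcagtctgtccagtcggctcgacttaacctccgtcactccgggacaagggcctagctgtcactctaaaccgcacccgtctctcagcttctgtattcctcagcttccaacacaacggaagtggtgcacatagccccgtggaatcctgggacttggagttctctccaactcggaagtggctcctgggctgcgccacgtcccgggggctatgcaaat
Itga5: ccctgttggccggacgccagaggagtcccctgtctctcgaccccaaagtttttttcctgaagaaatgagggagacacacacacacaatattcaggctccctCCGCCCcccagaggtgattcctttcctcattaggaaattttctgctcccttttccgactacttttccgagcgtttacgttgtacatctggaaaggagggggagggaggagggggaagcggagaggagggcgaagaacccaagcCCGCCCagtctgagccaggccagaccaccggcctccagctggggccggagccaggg
Vcl: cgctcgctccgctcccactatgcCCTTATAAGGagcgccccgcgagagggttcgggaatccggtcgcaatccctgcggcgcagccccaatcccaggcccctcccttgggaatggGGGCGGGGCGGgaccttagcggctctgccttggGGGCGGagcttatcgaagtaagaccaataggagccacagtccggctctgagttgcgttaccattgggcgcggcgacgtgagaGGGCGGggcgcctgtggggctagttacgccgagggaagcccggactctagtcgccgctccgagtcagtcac
Fermt2: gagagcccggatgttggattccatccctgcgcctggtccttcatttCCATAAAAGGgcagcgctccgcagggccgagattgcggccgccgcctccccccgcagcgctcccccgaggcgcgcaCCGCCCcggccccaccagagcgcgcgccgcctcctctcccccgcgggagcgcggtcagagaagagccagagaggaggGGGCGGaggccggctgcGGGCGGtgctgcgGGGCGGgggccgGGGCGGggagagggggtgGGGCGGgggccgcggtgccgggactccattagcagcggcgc

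The motifs searched on both strands were the SP/KLF box GGGCGG, the AP-1 site TGANTCA, the PU.1 site GAGGAAGT and the CArG box, the site of serum response factor, searched by its consensus. No 2 motifs overlapped in these 4 promoters, although 2 SP/KLF boxes of Vcl share a base. The SP/KLF box was present 2 times in the Itga5 promoter, 4 times in Vcl and 6 times in Fermt2, and no motif searched was in the Tln1 window. A CArG box stood in the Vcl and Fermt2 windows. It was not in those of Itga5 and Tln1, which were also lower at 7 than at 3 days. Of the 28 members with a promoter, 14 held the SP/KLF box, against 35.7% of all 32851 promoters in the table. The CArG box was in 3 of the 28 (Fermt2, Itgb6 and Vcl), against 1.63% of all promoters, the PU.1 site in 6, against 3.2%, and the AP-1 site in 3, against 7.81%. Members were counted by symbol, with a match in any of their promoters, while the shares over all are per promoter. These matches are descriptions of the letters in the windows.

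**Figure D1:**
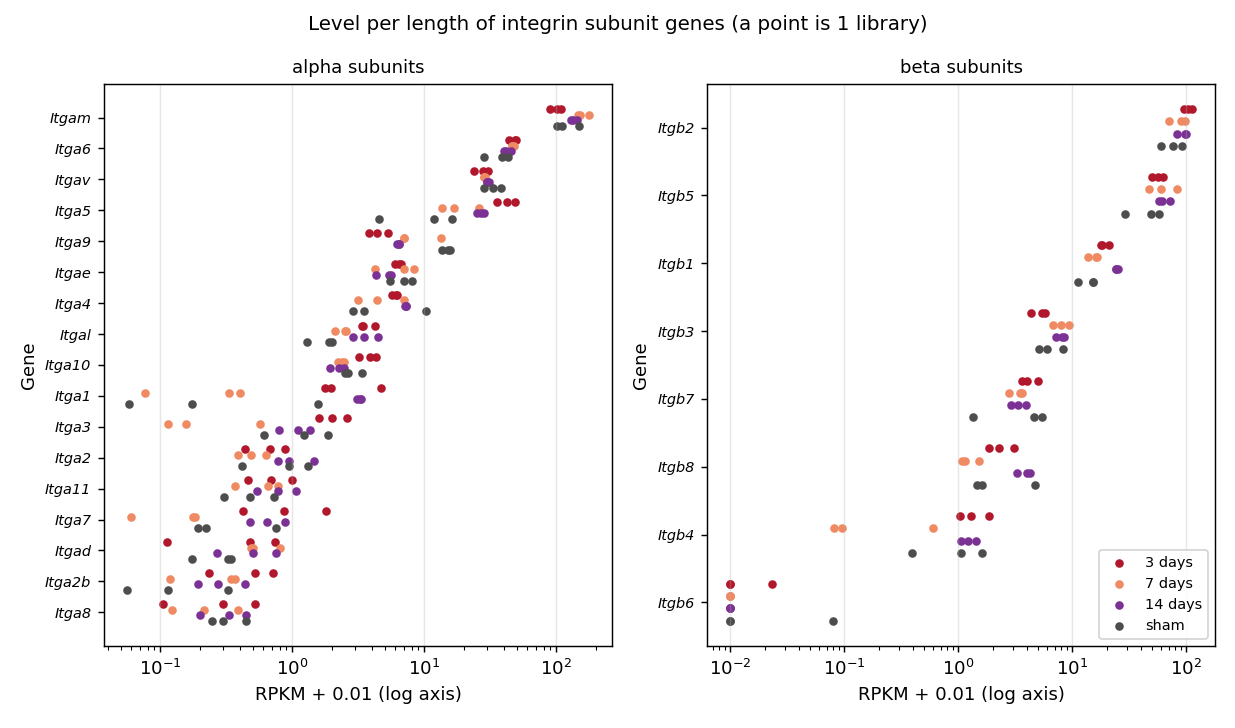
Level of each integrin alpha and beta gene as deposited RPKM plus 0.01 on a log axis, with 1 point per library and colours for 3 days, 7 days, 14 days and sham. Itgam and Itgb2 were the genes with the most RPKM of their chain, and the alpha genes span from under 1 RPKM to over 100 RPKM.

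Set beside each other per length, Itgam led the alpha chains and Itgb2 the beta chains. Itgam made up 40.1% ± 2.5 of the summed RPKM of the alpha genes at 3 days, 56.5% ± 2.8 at 7 days, 50.8% ± 0.8 at 14 days and 50.5% ± 6.6 in sham (SD, n = 3 in each group). It was followed by Itga6, a laminin chain, with 19% ± 1.8 at 3 days and 15.4% ± 2.5 in sham. Itgav, the chain of the vitronectin receptors, took 11% ± 1.3 at 3 days and 14.1% ± 3.0 in sham. Itga5, the fibronectin receptor chain, took 16.8% ± 2.1 at 3 days, 6.7% ± 2.4 at 7 days, 10.0% ± 0.5 at 14 days and 4.7% ± 2.7 in sham. In that order Itga5 thus stood above Itgav at 3 days and below Itga9 in sham, where Itga9 took 6.3% ± 0.5, against 1.8% ± 0.2 at 3 days. Among the beta genes, Itgb2 took 54.0% ± 0.6 of the summed RPKM at 3 days and 50.8% ± 6.1 in sham, and Itgb5, which pairs with Itgav, took 29.3% ± 0.9 at 3 days and 30.4% ± 7.7 in sham. Itgb1, the partner of most alpha chains, took 9.9% ± 1.0 at 3 days and 9.4% ± 1.7 in sham. Shares were not tested, and a share moves with the other genes of its class.

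At 3 days after injury, 6 of the 41 tested members (14.6%) differed from sham, against 20% of all tested genes. The members higher at 3 days were Tln1, Itga5, Itgal and Fermt3, and 10.9% of all tested genes were higher. The members lower at 3 days were Itga9 and Tln2, and 9.17% of all tested genes were lower. The members' median log2 fold change was 0.33, against -0.03 over all tested genes, and 28 of 41 were positive. The share of members called was thus below that of all genes. Of these 6 calls, 5 held with any 1 library left out, and that of Itgal did not. Without sham replicate 4 the count was 11, the further members being Itga1, Itga4, Itga7 and Vcl, all higher at 3 days, and the second Itgam ID, which was lower.

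**Figure D2:**
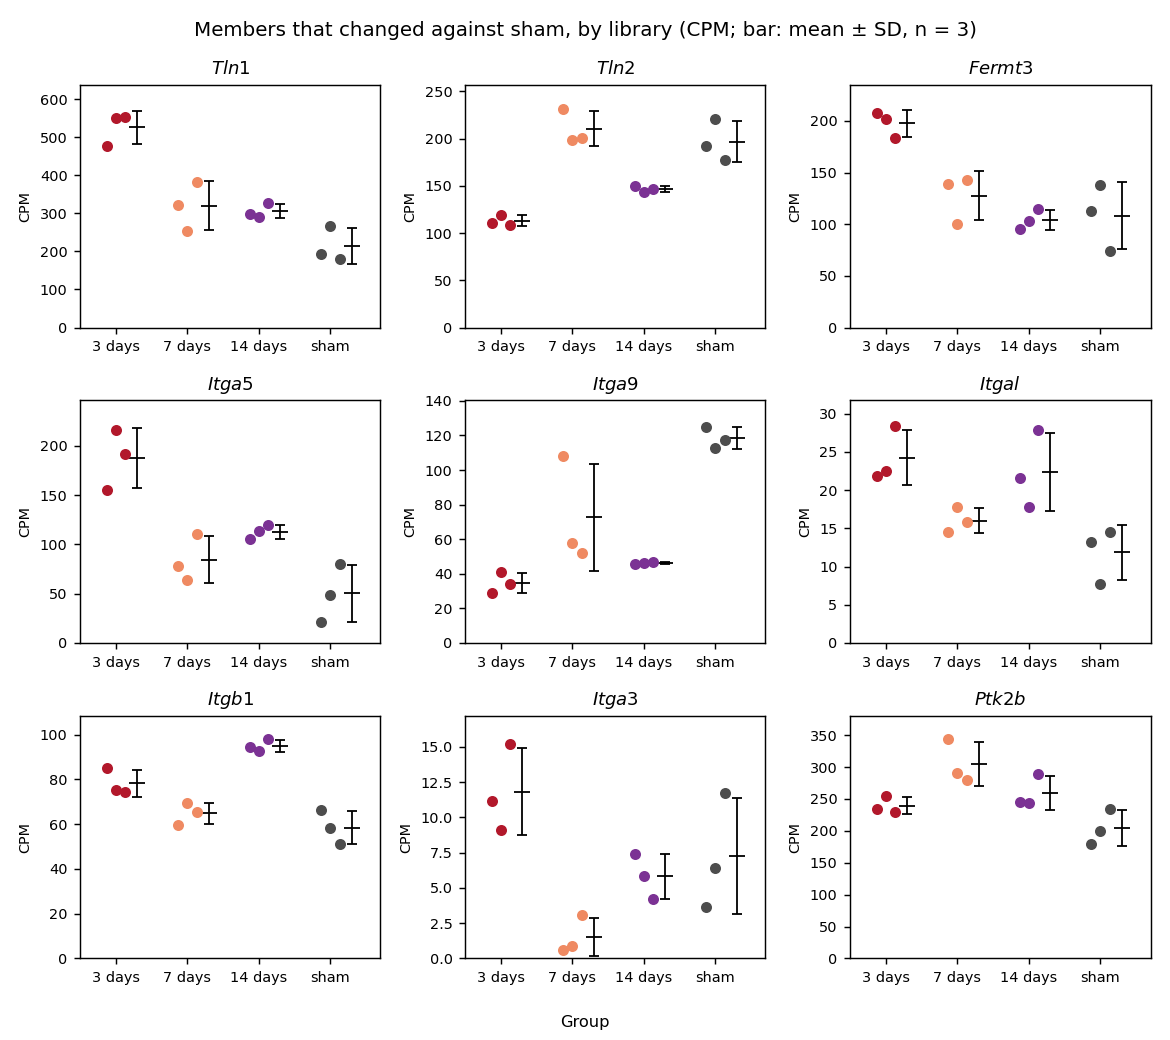
CPM per library of the 9 members that differed from sham at one or more times, with 3 days, 7 days, 14 days and sham from left to right; points are libraries and bars are the mean ± SD of 3 libraries. The 3-day points of Tln1, Itga5, Itgal and Fermt3 lie above all sham points, and those of Itga9 and Tln2 below all sham points.

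The talins moved in opposite directions at 3 days. Tln1, the talin of blood cells and most tissues, had 476, 551 and 552 CPM at 3 days, 323, 253 and 382 CPM at 7 days, 299, 291 and 326 CPM at 14 days and 193, 268 and 181 CPM in sham. Every 3-day library was above every other library, and the 7-day and sham ranges overlapped. At 3 days over sham, the log2 fold change was 1.30 ± 0.18 (adjusted p = 0.000275), and it was 1.17 to 1.47 over the alternatives tried. At 7 days and 14 days over sham Tln1 gave 0.58 ± 0.18 (adjusted p = 0.0591) and 0.51 ± 0.18 (adjusted p = 0.0904), neither past the threshold. Tln1 was lower at 7 than at 3 days by a log2 fold change of -0.72 ± 0.18 (adjusted p = 0.0196) and lower at 14 than at 3 days by -0.79 ± 0.18 (adjusted p = 0.017). The first of these was lost without 3-day replicate 2 or 3 or 7-day replicate 1 or 3, at adjusted p = 0.0582 to 0.0979. The second was lost without 14-day replicate 1, 2 or 3 or 3-day replicate 2 or 3, at adjusted p = 0.0714 to 0.103. An exon of Tln1 overlaps Creb3 on the other strand, and the strand setting of the counting is not given in the sources used here.

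Tln2, the second talin, best known from brain, heart and muscle, ran the other way, with 111, 119 and 109 CPM at 3 days, 231, 198 and 201 CPM at 7 days, 149, 144 and 146 CPM at 14 days and 192, 220 and 178 CPM in sham. All 3-day libraries were below all others, the 14-day libraries lay between, and the 7-day and sham ranges overlapped. At 3 days over sham, the log2 fold change was -0.80 ± 0.14 (adjusted p = 0.00155), and at 7 over 3 days it was 0.90 ± 0.14 (adjusted p = 0.00243). Both held with any 1 library left out and under every other setting tried. Beside the lower Tln2 at 3 days, neuronal markers summed to 720 to 908 CPM at 3 days, 913 to 1244 CPM at 7 days, 1171 to 1716 CPM at 14 days and 1674 to 3082 CPM in sham. Of 12 such markers, 9 were lower at 3 days than in sham and 0 passed the threshold at 7 over 3 days. Microglial markers summed to 3399 to 4075 CPM at 3 days and 4617 to 5832 CPM at 7 days. They summed to 3861 to 4775 CPM at 14 days and 5190 to 6646 CPM in sham. Of 12 microglial markers, 4 were lower and 1 higher at 3 days than in sham. At 7 over 3 days, 5 were higher and 0 lower. The part of neuronal and microglial RNA in the result was not tested. At 14 days Tln2 gave -0.43 ± 0.14 over sham (adjusted p = 0.0725). Per length, Tln1 stood at 53.4 ± 3.7 RPKM and Tln2 at 6.12 ± 0.36 RPKM at 3 days, and at 21.4 ± 7.0 RPKM and 10.4 ± 2.2 RPKM in sham (SD, n = 3 each).

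The kindlins are the second family of activators at the beta tail. Fermt3, the kindlin of blood cells, had 208, 202 and 183 CPM at 3 days, 139, 101 and 143 CPM at 7 days, 95.4, 103 and 115 CPM at 14 days and 112, 138 and 73.6 CPM in sham. The 3-day libraries were above all others, and the other 3 groups overlapped. At 3 days over sham, the log2 fold change was 0.87 ± 0.21 (adjusted p = 0.0104). At 14 over 3 days Fermt3 fell by a log2 fold change of -0.92 ± 0.21 (adjusted p = 0.0158), a call that was lost without any one of the 3-day or 14-day libraries, at adjusted p = 0.0516 to 0.104. Fermt2, the kindlin of cells that adhere to matrix, is given with the members that were lowest at 7 days. At 3 days Fermt3 stood at 76.1 ± 6.3 RPKM and Fermt2 at 6.76 ± 2.49 RPKM, against 41.2 ± 16 RPKM and 5.59 ± 2.65 RPKM in sham (SD, n = 3 each). Fermt3 shares exon sequence with Trpt1 on the other strand.

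Of the chains that bind fibronectin and other ligands with an RGD motif, Itga5 was the member with the largest rise past the threshold at 3 days. It had 156, 216 and 192 CPM at 3 days, 78.6, 63.9 and 111 CPM at 7 days, 105, 113 and 119 CPM at 14 days and 21.6, 48.9 and 80.1 CPM in sham. The 3-day and 14-day libraries were all above sham, and the sham libraries spread over a wide range. The log2 fold change was 1.92 ± 0.34 at 3 days over sham (adjusted p = 0.00148) and 1.18 ± 0.34 at 14 days over sham (adjusted p = 0.0381). At 7 days it was 0.77 ± 0.34 (adjusted p = 0.158), and 1.28 without sham replicate 4 (adjusted p = 0.0156). The 3-day call held with any 1 library left out, while that at 14 days was lost without sham replicate 2 or 3 or any one of the 3-day or 14-day libraries, at adjusted p = 0.0506 to 0.118, and in a fit of only those 2 groups (adjusted p = 0.109). Itga5 was lower at 7 than at 3 days by -1.15 ± 0.33 (adjusted p = 0.0331), which was lost without any one of the 3-day libraries or 7-day replicate 1 or 3, at adjusted p = 0.0512 to 0.131.

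The other chains of this class did not pass the test in any comparison. Itgav had 295 ± 30.5 CPM at 3 days, 312 ± 18.4 CPM at 7 days, 308 ± 3.8 CPM at 14 days and 373 ± 75.1 CPM in sham (SD, n = 3 each). Its log2 fold change at 3 days over sham was -0.34 ± 0.16 (adjusted p = 0.145). Itga8, which binds nephronectin, stood at 0.683 to 3.84 CPM over all libraries, and Itga2b, the platelet fibrinogen receptor chain, at 0.280 to 3.94 CPM.

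Itga9 pairs with Itgb1 and binds tenascin-C, osteopontin and VCAM1, and it was the member with the largest fall past the threshold at 3 days. It had 28.9, 40.8 and 34.2 CPM at 3 days, 108, 57.6 and 52.2 CPM at 7 days, 45.7, 46.5 and 46.6 CPM at 14 days and 125, 113 and 118 CPM in sham. Every library after injury was below every sham library, and the 7-day libraries were above the 3-day and 14-day ones. Over sham, the log2 fold change was -1.77 ± 0.25 at 3 days (adjusted p = 0.000236), -0.71 ± 0.24 at 7 days (adjusted p = 0.0748) and -1.36 ± 0.24 at 14 days (adjusted p = 0.00325). The 3-day and 14-day calls held with any 1 library left out and under every other setting tried. Between 3 and 7 days Itga9 rose by a log2 fold change of 1.06 ± 0.24 (adjusted p = 0.0127). This was lost without 3-day replicate 1 or 3 or 7-day replicate 1, at adjusted p = 0.0513 to 0.0649, and the fold without 7-day replicate 1, the library at 108 CPM, was 0.67. Beside these values, the neuronal sums given for Tln2 were also lowest at 3 days, and microglial markers summed to 3399 to 4075 CPM at 3 days, 4617 to 5832 CPM at 7 days, 3861 to 4775 CPM at 14 days and 5190 to 6646 CPM in sham. Of 12 microglial markers, 4 were lower and 1 higher at 3 days than in sham, and 3 were lower at 14 days. Of 9 tested markers of border-associated macrophages, 4 were lower and 1 higher at 3 days, and 6 lower and 0 higher at 14 days. B-cell markers summed to 309 to 705 CPM in sham and 169 to 233 CPM at 3 days. At 7 and 14 days the B-cell sums were 139 to 272 CPM and 146 to 170 CPM. Their part in the result was not tested.

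Of the leukocyte alpha chains (Itgal, Itgam, Itgad, Itgae and Itga4), Itgal rose after injury and Itgam was higher at 7 than at 3 days. Itgal, whose pair with Itgb2 binds ICAM ligands, had 21.9, 22.5 and 28.3 CPM at 3 days, 14.5, 17.8 and 15.8 CPM at 7 days, 21.5, 17.8 and 27.8 CPM at 14 days and 13.2, 7.77 and 14.6 CPM in sham. The 3-day and 14-day libraries were all above sham. Over sham, the log2 fold change was 1.04 ± 0.27 at 3 days (adjusted p = 0.015) and 0.92 ± 0.27 at 14 days (adjusted p = 0.0445). The 3-day call was lost without 3-day replicate 3 (0.89, adjusted p = 0.0793), without sham replicate 3 (0.78, adjusted p = 0.0541) and in a fit of only the 2 groups (1.01, adjusted p = 0.0709). The 14-day call was lost in that fit too, at adjusted p = 0.12. It was also lost without any one of the 3-day or 14-day libraries, 7-day replicate 1 or 4 or sham replicate 2 or 3, at adjusted p = 0.0512 to 0.203. Beside the 3-day rises of Itgal, Itga5, Tln1 and Fermt3, markers of monocytes, which carry all 4 genes, summed to 436 to 507 CPM at 3 days, 162 to 243 CPM at 7 days, 263 to 429 CPM at 14 days and 120 to 122 CPM in sham. Of 9 such markers tested, 6 were higher at 3 days than in sham. Their part in the result was not tested.

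Itgam, the complement receptor chain, had 501, 549 and 464 CPM at 3 days, 940, 801 and 705 CPM at 7 days, 621, 677 and 636 CPM at 14 days and 794, 518 and 565 CPM in sham. The 7-day libraries were all above the 3-day and 14-day ones, and the 7-day and sham ranges overlapped. At 7 over 3 days its log2 fold change was 0.69 ± 0.17 (adjusted p = 0.0189), and over sham it was -0.31 ± 0.17 at 3 days (adjusted p = 0.221) and 0.38 ± 0.17 at 7 days (adjusted p = 0.175). The first was lost without 3-day replicate 1 or 3 or 7-day replicate 1, at adjusted p = 0.058 to 0.102. The sum of microglial markers was also higher at 7 than at 3 days in every library, with 5 of 12 past the threshold, and its part in the result was not tested. The second ID named Itgam is a separate gene model that overlaps the first on the same strand, and reads could be split between them. It stood at 1.73 to 5.94 CPM, and neither its log2 fold change of -1.10 ± 0.39 at 3 days over sham (adjusted p = 0.0609) nor any other passed the threshold.

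Itgal, both Itgam IDs and Itgad lie near each other on chromosome 7 of GRCm38, from 127296260 at the start of Itgal to 128223816 at the end of Itgad. Itgad, the fourth of these and a further partner of Itgb2, stood at 0.456 to 3.77 CPM and passed no test. Neighbours on chromosome 7 therefore gave log2 fold changes at 3 days over sham of 1.04 (Itgal), -0.31 (Itgam) and 0.69 (Itgad, adjusted p = 0.484), and the differences between these genes were not tested. Itgae, which pairs with Itgb7 and binds E-cadherin, had 29.3 ± 1.3 CPM at 3 days, 30.5 ± 9.7 CPM at 7 days, 22.2 ± 3.1 CPM at 14 days and 32.1 ± 3.55 CPM in sham (SD, n = 3 each). Itga4, which binds VCAM1 and fibronectin, had 78.1, 86.9 and 87.3 CPM at 3 days, 46.3, 104 and 59.1 CPM at 7 days, 96, 93.5 and 96.5 CPM at 14 days and 43, 45 and 161 CPM in sham. Its sham values thus differed most in replicate 4. With all libraries the log2 fold change of Itga4 was 0.03 ± 0.40 at 3 days (adjusted p = 0.964) and 0.21 ± 0.40 at 14 days (adjusted p = 0.784). Without sham replicate 4 it was 0.91 at 3 days (adjusted p = 0.0192) and 1.10 at 14 days (adjusted p = 0.00946). An exon of Itga4 overlaps Cerkl on the other strand.

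Of the beta chains, Itgb1 was the member past the threshold against sham, at 14 days, when 4 of 41 members (Itga5, Itgal, Itgb1 and Itga9) differed from sham. The share over all tested genes was 9.82%, with 5.02% higher and 4.79% lower. The members' median log2 fold change at 14 days over sham was 0.17, against -0.05 over all genes. The count was 9 without sham replicate 4, 1 without 14-day replicate 1 or 3, and 2 without 14-day replicate 2, sham replicate 2 or any one of the 3-day libraries. Itgb1 had 85.2, 75.1 and 74.5 CPM at 3 days, 59.7, 69.4 and 65.3 CPM at 7 days, 94.3, 92.8 and 98 CPM at 14 days and 66.1, 58.1 and 51.2 CPM in sham. The 14-day libraries were above all others, and the 3-day ones were above sham. Over sham, the log2 fold change was 0.42 ± 0.16 at 3 days (adjusted p = 0.0804), 0.15 ± 0.16 at 7 days (adjusted p = 0.595) and 0.70 ± 0.16 at 14 days (adjusted p = 0.0138). The 14-day call was lost without 14-day replicate 1 (adjusted p = 0.0574) or 3 (adjusted p = 0.0681). It was also lost in a fit of only the 2 groups (adjusted p = 0.0518). Beside the 14-day rises of Itgb1, Itga5 and Itgal, endothelial markers summed to 356 to 362 CPM, against 41.8 to 159 CPM in sham. Of these 12 markers, 5 were higher and 0 lower. Fibroblast and pericyte markers summed to 646 to 756 CPM, against 68.9 to 489 CPM, with 2 of 12 higher and 0 lower. Monocyte markers summed to 263 to 429 CPM, against 120 to 122 CPM, with 1 higher and 1 lower of 9 tested. The part of these cells in the rises was not tested.

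Itgb2, the leukocyte beta chain, had 316, 347 and 300 CPM at 3 days, 290, 231 and 290 CPM at 7 days, 239, 284 and 290 CPM at 14 days and 195, 259 and 260 CPM in sham. Its 3-day libraries were all above sham, but the log2 fold change of 0.43 ± 0.16 did not pass the threshold (adjusted p = 0.0718). Itgb3, which with Itgav makes a vitronectin receptor, had 33.7, 32 and 26 CPM at 3 days, 58.9, 42.8 and 45.6 CPM at 7 days, 45.4, 39.7 and 47.4 CPM at 14 days and 38.1, 45.7 and 33.6 CPM in sham. The 7-day and 14-day libraries were above all 3-day ones. The sum of microglial markers was also higher at 7 than at 3 days in every library, with 5 of 12 past the threshold. Its part in the Itgb3 values was not tested. Itgb3 was higher at 7 than at 3 days by a log2 fold change of 0.68 ± 0.20 (adjusted p = 0.0367). This call was lost without any one of the 3-day or 14-day libraries or 7-day replicate 1 or 4, at adjusted p = 0.0513 to 0.172, and with no filter on low counts (adjusted p = 0.0623).

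The remaining beta chains passed no test against sham. Itgb5 ranged from 110 to 297 CPM, with its lowest library in sham and its highest at 7 days, and its log2 fold changes over sham were 0.29 ± 0.22 at 3 days, 0.49 ± 0.22 at 7 days and 0.38 ± 0.22 at 14 days. Itgb7 ranged from 3.94 to 16.8 CPM. Itgb8, which with Itgav releases active TGF-beta, had 24.8, 20.5 and 34.7 CPM at 3 days, 13.4, 17.8 and 11.5 CPM at 7 days, 44.6, 34.1 and 42.3 CPM at 14 days and 17.3, 16.7 and 58.2 CPM in sham, the last of these in replicate 4. The 14-day libraries of Itgb8 were above all 7-day ones, with a log2 fold change of 1.51 ± 0.40 (adjusted p = 0.0629), and without sham replicate 4 in the fit this was 1.50 (adjusted p = 0.00103). Without that library Itgb8 was also higher at 14 days than in sham, by 1.23 (adjusted p = 0.00543). With it the value was 0.41 ± 0.39 (adjusted p = 0.541). Beside these values, astrocyte markers summed to 685, 1584 and 5373 CPM in sham, the last in replicate 4. At 14 over 7 days, 4 of 12 astrocyte markers were higher and 0 lower, with a median log2 fold change of 1.61. Of 12 endothelial markers, 9 were higher and 0 lower. The part of these cells in the Itgb8 values was not tested. Itgb6, best known from epithelia, had 3 counts in all 12 libraries together, 1 in 3-day replicate 3 and 2 in sham replicate 4.

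At 7 days, 2 of the 41 members differed from sham, against 9.28% of all tested genes, of which 4.61% were higher and 4.67% lower. The members' median log2 fold change was 0.01, the same as over all genes to 2 decimals. Ptk2b was higher and Itga3 lower. The count was 8 without sham replicate 2, 4 without sham replicate 3, 1 without any one of the 14-day libraries, 3-day replicate 1 or 2 or 7-day replicate 1, and 9 with DESeq2. Ptk2b, the focal adhesion kinase relative known as Pyk2 that is used in myeloid cells, had 234, 254 and 229 CPM at 3 days, 344, 290 and 280 CPM at 7 days, 245, 243 and 290 CPM at 14 days and 179, 200 and 235 CPM in sham. All 7-day libraries were above sham. At 7 days over sham, the log2 fold change was 0.58 ± 0.15 (adjusted p = 0.031). This call was lost without any one of the 14-day libraries, 3-day replicate 1 or 2, 7-day replicate 1 or 4 or sham replicate 2 or 3, at adjusted p = 0.0538 to 0.113, and in a fit of only the 2 groups (adjusted p = 0.219).

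**Figure D3:**
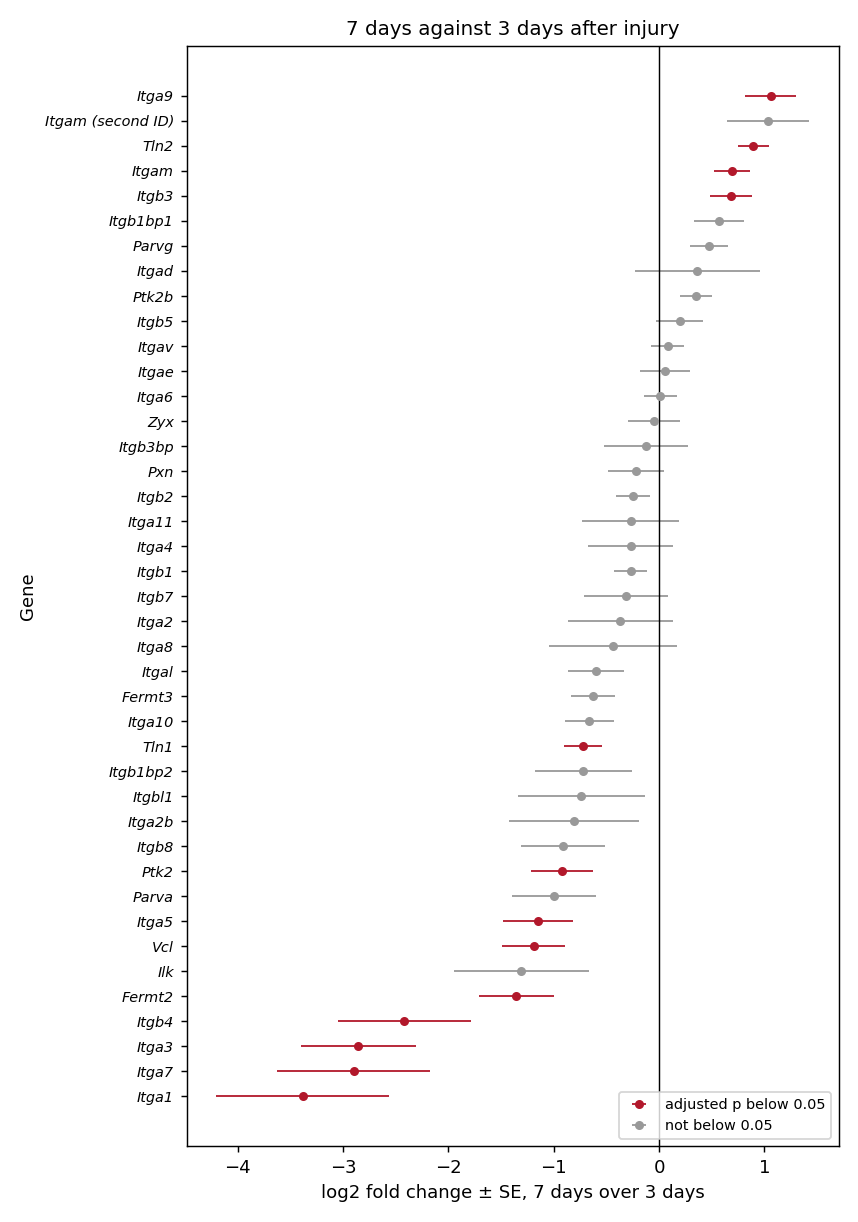
Log2 fold change ± SE at 7 days over 3 days for the 41 tested members, sorted by fold, with members past an adjusted p of 0.05 in red. Itga9, Tln2, Itgam and Itgb3 lie to the right and Itga1, Itga7, Itga3, Itgb4, Fermt2, Vcl, Itga5, Ptk2 and Tln1 to the left.

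The comparison of 7 days with 3 days held the most calls. Of the 41 members, 13 (31.7%) differed, against 13.4% of all tested genes. The 9 lower at 7 days were Itga1, Itga3, Itga7, Itgb4, Fermt2, Vcl, Itga5, Ptk2 and Tln1, where 7.52% of all genes were lower, and the 4 higher were Itga9, Tln2, Itgam and Itgb3, where 5.85% of all genes were higher. The libraries of 19 members at 7 days lay all below those at 3 days, against 20.2% of all tested genes, and those of 8 lay all above, against 19.5%. The members' median log2 fold change was -0.31, against 0.01 over all genes. The count was 8 without 3-day replicate 1, 2 without 3-day replicate 3, 2 without 7-day replicate 1 and 6 without 7-day replicate 3. The calls of Tln2 and Itga3 held with any 1 library left out.

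Of the chains that bind laminin, Itga3 and Itga7 were lower at 7 days and Itga6 was not. Itga3 had 11.2, 9.1 and 15.2 CPM at 3 days, 0.628, 0.881 and 3.08 CPM at 7 days, 7.38, 5.84 and 4.23 CPM at 14 days and 3.63, 6.4 and 11.8 CPM in sham. The 7-day libraries were below all others. On the log2 scale the fold change was -2.86 ± 0.55 at 7 over 3 days (adjusted p = 0.0056), and -3.93 without 7-day replicate 4, the 7-day library with the highest value. At 7 days over sham it was -2.12 ± 0.56 (adjusted p = 0.0288), and -3.22 without 7-day replicate 4. The call against sham was lost without 7-day replicate 1 (-1.78, adjusted p = 0.103), 7-day replicate 3 (-1.84, adjusted p = 0.0812) or sham replicate 4 (-1.59, adjusted p = 0.0897), and in a fit of only the 2 groups (adjusted p = 0.139). Itga7 had 3.42, 1.67 and 7.3 CPM at 3 days, 0.209, 0.704 and 0.669 CPM at 7 days, 2.41, 3.27 and 1.78 CPM at 14 days and 0.908, 0.686 and 3.36 CPM in sham. An exon of Itga7 overlaps Mettl7b on the other strand. The level of Itga7 was low throughout, and all 7-day libraries were below all 3-day ones. At 7 over 3 days, its log2 fold change was -2.90 ± 0.73 (adjusted p = 0.0187), and it was lost without 3-day replicate 3 (-2.14, adjusted p = 0.145), 7-day replicate 1 (-2.58, adjusted p = 0.0764) or 7-day replicate 3 (-3.08, adjusted p = 0.057). Itga6 had 430 ± 27.3 CPM at 3 days, 434 ± 30 CPM at 7 days, 361 ± 21.6 CPM at 14 days and 342 ± 67.6 CPM in sham (SD, n = 3 each), with a log2 fold change at 7 over 3 days of 0.01 ± 0.16 (adjusted p = 0.968).

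Itgb4 pairs with Itga6 and anchors epithelia, endothelium and Schwann cells to laminin. It had 8.88, 7.28 and 13.5 CPM at 3 days, 0.628, 0.528 and 4.01 CPM at 7 days, 6.93, 7.95 and 9.58 CPM at 14 days and 2.88, 6.86 and 12.6 CPM in sham. The 7-day libraries were below all 3-day and 14-day ones. As 7 over 3 days, the log2 fold change was -2.42 ± 0.63 (adjusted p = 0.0225), and -4.07 without 7-day replicate 4. It was lost without 3-day replicate 3 (-2.11, adjusted p = 0.117), 7-day replicate 1 (-2.06, adjusted p = 0.0888) or 7-day replicate 3 (-1.98, adjusted p = 0.0862). An exon of Itgb4 overlaps the noncoding RNA gene B230344G16Rik on the other strand.

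The collagen-binding chains Itga1 and Itga2 lie next to each other on chromosome 13 of GRCm38, Itga2 at 114833081 to 114932100 and Itga1 at 114953096 to 115101964, both on the minus strand. Itga1 had 11.6, 10.6 and 28.9 CPM at 3 days, 0.419, 2.47 and 1.87 CPM at 7 days, 18.7, 18.5 and 17.4 CPM at 14 days and 0.303, 0.914 and 10.4 CPM in sham, the highest sham value in replicate 4. Its 3-day and 14-day libraries were above all 7-day and sham ones. The log2 fold change was -3.38 ± 0.82 at 7 over 3 days (adjusted p = 0.0164), which was lost without 3-day replicate 3 (-2.74, adjusted p = 0.102) or 7-day replicate 1 (-2.98, adjusted p = 0.0724). Over sham it was 2.30 ± 0.78 at 3 days (adjusted p = 0.0503) and 2.37 ± 0.79 at 14 days (adjusted p = 0.0706). Without sham replicate 4 these were 4.88 (adjusted p = 0.00015) and 4.96 (adjusted p = 0.000245). Itga1 shares exon sequence with the gene model Gm49395 on the same strand. Itga2 ranged from 1.68 to 6.16 CPM and passed no test.

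Itga10 and Itga11 are the remaining collagen chains. Itga10 had 16.4, 20 and 22.7 CPM at 3 days, 13.4, 13 and 11.1 CPM at 7 days, 11.2, 9.35 and 12 CPM at 14 days and 13.8, 16.2 and 15.4 CPM in sham. Its 3-day libraries were above all others. At 14 over 3 days the log2 fold change was -0.86 ± 0.24 (adjusted p = 0.0388). This was lost without any one of the 3-day or 14-day libraries, 7-day replicate 4 or sham replicate 3, at adjusted p = 0.0514 to 0.194, and with no filter on low counts (adjusted p = 0.114). Itga10 overlaps the gene model Gm42957 on the same strand. Itga11 ranged from 1.68 to 5.19 CPM and passed no test. In the comparison of 14 with 3 days, 3 of 41 members (Fermt3, Itga10 and Tln1, all lower) were past the threshold, against 7.31% of all tested genes, of which 5.14% were lower and 2.17% higher. The members' median log2 fold change was -0.04 and that of all genes -0.01. No member was called in this comparison without 14-day replicate 1, 2 or 3 or without 3-day replicate 2 or 3, and 1 was called without 3-day replicate 1.

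Fermt2, the kindlin of adherent cells, had 20.5, 19.3 and 37 CPM at 3 days, 9.64, 10.4 and 10.2 CPM at 7 days, 26.7, 35.8 and 24.7 CPM at 14 days and 10.4, 22.6 and 32.2 CPM in sham. The 7-day libraries were below all others and close to each other. On the log2 scale the fold change was -1.35 ± 0.36 at 7 over 3 days (adjusted p = 0.024) and 1.52 ± 0.36 at 14 over 7 days (adjusted p = 0.0435). The first was lost without 3-day replicate 3 (-0.97, adjusted p = 0.162) or any one of the 7-day libraries, at adjusted p = 0.0504 to 0.0847. The second was lost without any one of the 7-day or 14-day libraries or 3-day replicate 1 or 2, at adjusted p = 0.052 to 0.165. In the comparison of 14 with 7 days, 2 of 41 members, Fermt2 and Itga1, differed and both were higher, against 2.19% of all tested genes, with 1.35% higher and 0.835% lower. Itga1 gave a log2 fold change of 3.46 ± 0.83 at 14 over 7 days (adjusted p = 0.0439), lost without the same libraries as the Fermt2 call, at adjusted p = 0.0581 to 0.185. The count was 0 without any one of the 14-day libraries, 3-day replicate 1 or 2 or 7-day replicate 1 or 3, and 8 without sham replicate 2. Without sham replicate 4 in the fit, 8 members differed too, the further ones being Itga3, Itgb1, Itgb4, Itgb8 and Vcl, all higher at 14 days, and Tln2, which was lower.

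Vcl encodes vinculin, which locks stretched talin to actin. It had 19.1, 24.7 and 35.2 CPM at 3 days, 12.4, 12.5 and 10 CPM at 7 days, 22.2, 21.3 and 27.8 CPM at 14 days and 10.1, 12.8 and 21.3 CPM in sham. The 7-day libraries were below all 3-day and 14-day ones and overlapped with sham. The log2 fold change was -1.19 ± 0.30 at 7 over 3 days (adjusted p = 0.0188), and it was lost without 3-day replicate 3 (-0.91, adjusted p = 0.129) or any one of the 7-day libraries, at adjusted p = 0.0509 to 0.0592. At 3 days over sham Vcl gave 0.86 ± 0.30 (adjusted p = 0.053), and 1.19 without sham replicate 4 (adjusted p = 0.00704). Vcl shares exon sequence with Ap3m1 on the other strand. Ptk2, focal adhesion kinase itself, had 26.9, 23.7 and 38.2 CPM at 3 days, 12.2, 17.3 and 17.5 CPM at 7 days, 20.2, 19.2 and 19.6 CPM at 14 days and 38.3, 27 and 16.2 CPM in sham. Its 7-day libraries were below all 3-day ones. At 7 over 3 days the log2 fold change was -0.92 ± 0.29 (adjusted p = 0.0496), a call next to the threshold. It was lost without any one of the 3-day, 7-day or 14-day libraries or sham replicate 3, at adjusted p = 0.0563 to 0.252. Per length, the 2 kinases stood at 7 days at 3.06 ± 0.685 RPKM for Ptk2 and 40.0 ± 3.6 RPKM for Ptk2b (SD, n = 3 each).

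**Figure D4:**
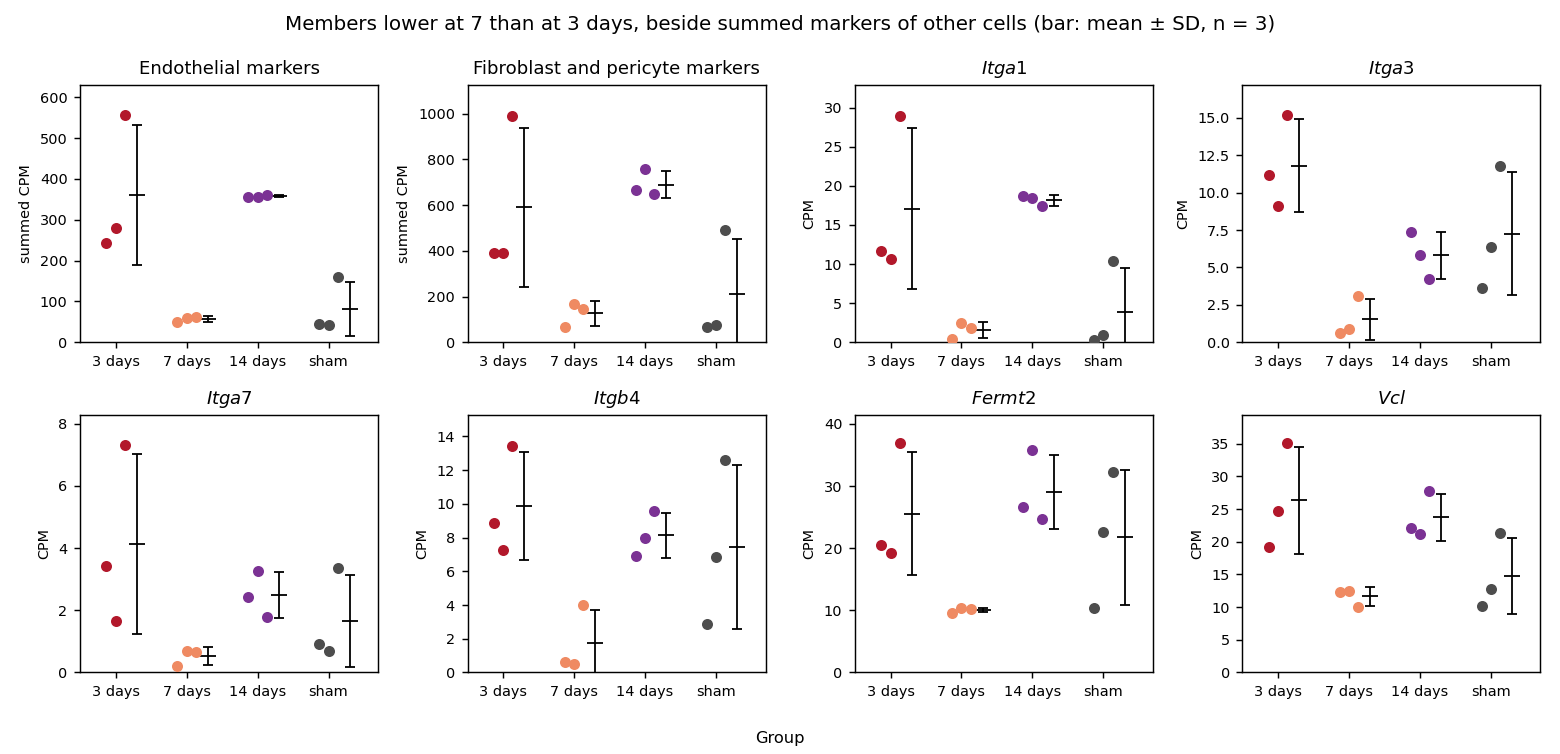
Summed CPM of 12 endothelial and of 12 fibroblast and pericyte markers, and CPM of 6 members lower at 7 than at 3 days, by library for 3 days, 7 days, 14 days and sham; bars are the mean ± SD of 3 libraries, drawn down to 0 where they would pass it. The marker sums and the 6 members are all lowest on average at 7 days, and 3-day replicate 3 and sham replicate 4 are the highest libraries of their groups in every panel.

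Markers of vessel cells moved beside Itga1, Itga3, Itga7, Itgb4, Fermt2 and Vcl. All 12 endothelial markers were lower at 7 than at 3 days and 9 of 12 were higher at 14 than at 7 days, and 11 of 12 were higher at 3 days than in sham. The 12 fibroblast and pericyte markers summed to 388 to 991 CPM at 3 days, 66.4 to 167 CPM at 7 days, 646 to 756 CPM at 14 days and 68.9 to 489 CPM in sham, and 6 of 12 were lower and 1 higher at 7 than at 3 days. Every one of these 24 markers had a count in each 3-day and 14-day library, while at 7 days as few as 8 of 12 endothelial markers did. Astrocyte markers summed to 1470 to 2371 CPM at 3 days, 1659 to 2065 CPM at 7 days, 2393 to 2827 CPM at 14 days and 685 to 5373 CPM in sham. Of 12 astrocyte markers, 4 were lower and 0 higher at 7 than at 3 days, with a median log2 fold change of -1.03. At 14 over 7 days, 4 were higher and 0 lower, with a median of 1.61. The 3-day library with the highest sums of endothelial and of fibroblast and pericyte markers, replicate 3, was also the highest 3-day library of all 6 genes. Ptk2 was highest in that 3-day library too, but in sham it was lowest in replicate 4, the sham library with the highest sums of both marker lists. The part of these cells in the result was not tested. The endothelial sums of all 3-day libraries were also above those of all sham libraries, beside the rises of Tln1, Itga5, Itgal and Fermt3 at 3 days, and their part in those rises was not tested.

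The other adaptors passed no test in any comparison. Pxn (paxillin, a scaffold for kinases) had 137 ± 7.0 CPM at 3 days, 118 ± 42.3 CPM at 7 days, 98.9 ± 9 CPM at 14 days and 104 ± 39.7 CPM in sham (SD, n = 3 each). Zyx (zyxin, which repairs strained actin fibres) had 81.5 ± 10.8 CPM at 3 days, 78.9 ± 28.2 CPM at 7 days, 56.4 ± 4.0 CPM at 14 days and 54.5 ± 12.2 CPM in sham, and its 3-day libraries were all above sham with a log2 fold change of 0.59 ± 0.25 (adjusted p = 0.112). Its exons overlap Epha1 on the other strand. Exons of Ilk overlap Rrp8 and Taf10 on the other strand, and the strand setting of the counting is not given. Ilk, the pseudokinase at the core of the ILK-PINCH-parvin complex, ranged from 0.151 to 3.75 CPM. Of its parvin partners, Parvg, the parvin of blood cells, had 102 ± 17.6 CPM at 3 days, 142 ± 9.5 CPM at 7 days, 111 ± 6.5 CPM at 14 days and 94.3 ± 20.3 CPM in sham, and its log2 fold change at 7 days over sham was 0.58 ± 0.18 (adjusted p = 0.0561). Parva, the widely expressed parvin, ranged from 6.16 to 23.4 CPM. Per length, Parvg stood at 44.6 ± 3.2 RPKM and Parva at 0.761 ± 0.173 RPKM at 7 days, against 29.5 ± 6.6 RPKM and 1.20 ± 0.575 RPKM in sham.

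Of the members that carry an integrin name without being a chain of a receptor, none passed a test. Itgb1bp1, which binds the Itgb1 tail and opposes talin there, had 22.3 ± 0.7 CPM at 3 days, 32.9 ± 7.3 CPM at 7 days, 34.6 ± 1.9 CPM at 14 days and 23.5 ± 7.2 CPM in sham (SD, n = 3 each). Itgb1bp2, known as melusin from muscle, had 5.01, 3.79 and 5.57 CPM at 3 days, 3.35, 1.58 and 3.74 CPM at 7 days, 2.41, 1.64 and 1.11 CPM at 14 days and 1.06, 2.29 and 2.24 CPM in sham, with a log2 fold change of 1.4 ± 0.49 at 3 days over sham (adjusted p = 0.0568). Its 3-day libraries were above all others. Itgb3bp, a centromere protein, ranged from 3.56 to 11.9 CPM, and Itgbl1, a secreted protein with repeats like those of beta chains, from 0.838 to 12.3 CPM, with the highest value in sham replicate 4. Itgb2l, a close relative of Itgb2, had 0, 3 and 17 counts at 3 days, 5, 2 and 1 at 7 days, 4, 1 and 2 at 14 days and 0, 1 and 0 in sham.

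Over all 6 comparisons, 18 members were past the threshold in one or more (43.9%, against 33% of all tested genes), and 23 in none. Against sham, 9 were past it at one or more times (22%, against 27.3% of all tested genes). The test of any difference between the 4 groups called 15 of 41 members (36.6%), against 26.4% of all tested genes. Of the 23 members called in none, 10 had a mean under 10 CPM and 13 a mean of 10 CPM or more, among them Itgav, Itga6, Itgb2 and Itgb5, and their lowest adjusted p in any comparison was 0.0561. A p that misses the threshold does not show equal levels. By library alone, 11 members were above and 4 below sham in all 3-day libraries, against 18.7% and 15.5% of all tested genes. At 7 days 3 lay above and 6 below all sham libraries, against 12.1% and 10.7%, and at 14 days 8 lay above and 6 below, against 15.5% and 14.2%. At 14 over 7 days 13 lay above and 6 below, against 14% and 16.7%, and at 14 over 3 days 7 lay above and 13 below, against 20.1% and 23%.

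**Figure D5:**
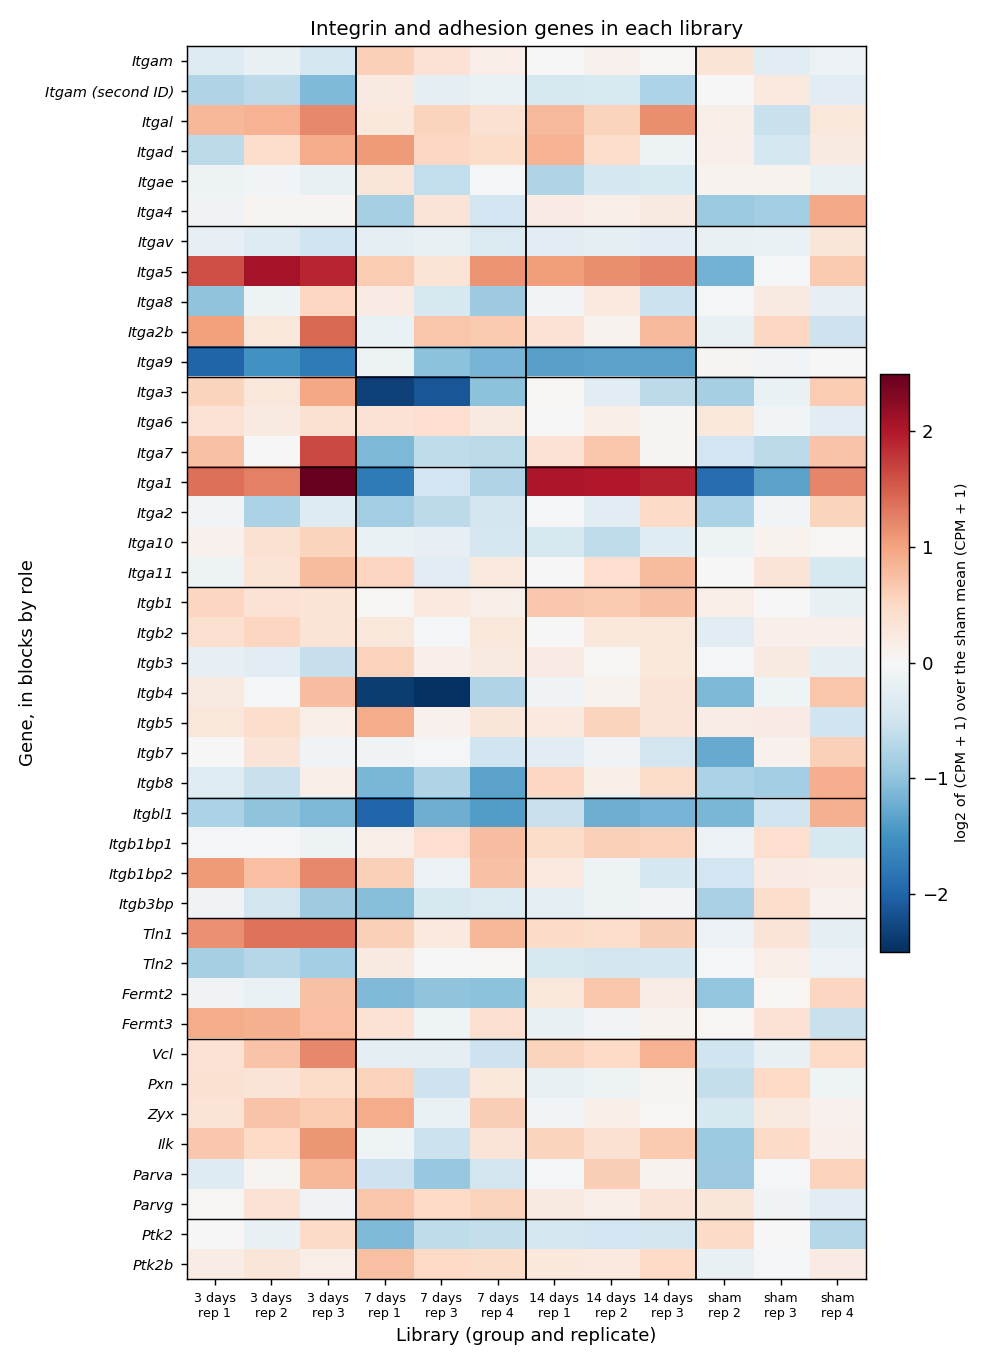
Log2 of CPM plus 1 over the sham mean for the 41 tested members (rows, in blocks by role) in the 12 libraries (columns: 3 days, 7 days, 14 days and sham), red above and blue below the sham mean. Tln1, Itga5 and Fermt3 are red and Itga9 and Tln2 blue in all 3-day libraries, Itga3 and Itgb4 are blue in all 7-day libraries, and sham replicate 4 departs from the other two sham libraries for Itga1, Itga4 and Itgb8.

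The wider adhesion pathway was followed with 5 lists of genes that are not members, counted by the same test. Of 28 genes of the ILK-PINCH-parvin complex and the actin linkers, 8 were higher and 0 lower at 3 days than in sham, against 10.9% higher and 9.17% lower of all tested genes, with a median log2 fold change of 0.53, against -0.03 over all genes. Fblim1 (migfilin, which ties filamin to the kindlins) had 82.9 ± 11.2 CPM at 3 days, 57.0 ± 20.0 CPM at 7 days, 93.4 ± 9.2 CPM at 14 days and 13.2 ± 3.5 CPM in sham (SD, n = 3 each). Its log2 fold change over sham was 2.65 ± 0.26 at 3 days (adjusted p = 1.49e-05), 2.11 ± 0.26 at 7 days (adjusted p = 0.000281) and 2.82 ± 0.26 at 14 days (adjusted p = 1.81e-05). The filamin gene Flna rose by 1.42 ± 0.21 at 3 days (adjusted p = 0.000441), the actinin gene Actn1 by 1.63 ± 0.25 (adjusted p = 0.000468) and Pdlim7 by 2.80 ± 0.34 (adjusted p = 8.45e-05). At 7 days over 3 days, 8 of the 28 were lower and 1 higher, against 7.52% lower and 5.85% higher of all genes, and the median was -0.63, against 0.01. Flna, Actn1 and Pdlim7 were among those lower, by -0.73 ± 0.21 (adjusted p = 0.0324), -0.81 ± 0.24 (adjusted p = 0.0349) and -2.28 ± 0.33 (adjusted p = 0.00129). Beside these changes, endothelial markers summed to 49.2 to 63.0 CPM at 7 days, against 242 to 556 CPM at 3 days, and monocyte markers and fibroblast and pericyte markers were lower at 7 than at 3 days in every library too, as given above. Their part in the list's values was not tested.

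Of 28 genes of signalling through FAK, Src, Cas and Crk, 6 were higher and 3 lower at 3 days than in sham, with a median of 0.13, against -0.03 over all genes. With 10.9% of all genes higher and 9.17% lower, the number lower was near the share over all genes. Arhgef7 (an exchange factor for Rac) rose by a log2 fold change of 1.13 ± 0.18 (adjusted p = 0.000719), Elmo2 by 1.17 ± 0.20 (adjusted p = 0.000994) and the Cas family gene Nedd9 by 1.31 ± 0.27 (adjusted p = 0.00435). Elmo1, the partner of Dock proteins in engulfment, had 558 ± 29.7 CPM at 3 days, 785 ± 207 CPM at 7 days, 552 ± 16.2 CPM at 14 days and 1119 ± 153 CPM in sham (SD, n = 3 each). Its log2 fold change was -1.0 ± 0.18 at 3 days (adjusted p = 0.00164) and -1.02 ± 0.18 at 14 days (adjusted p = 0.00311). The 2 Elmo genes thus moved in opposite directions at 3 days. Of 13 tested genes of inside-out activation through Rap1, 1 was higher and 1 lower at 3 days, near the same shares over all genes, and the median was -0.27. These were Rapgef3, an exchange factor for Rap1 under cyclic AMP, at 2.09 ± 0.57 (adjusted p = 0.0183), and Rasgrp3, at -0.85 ± 0.24 (adjusted p = 0.0215). Rapgef3 had 15.9 ± 13.4 CPM at 3 days, 2.4 ± 2.0 CPM at 7 days and 3.8 ± 0.6 CPM in sham. At 7 over 3 days it fell by -2.66 ± 0.58 (adjusted p = 0.00949). Endothelial markers summed to 242 to 556 CPM at 3 days and 49.2 to 63.0 CPM at 7 days. The part of other cells in the values of these lists was not tested.

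Of 17 partners of integrins in the membrane, 9 were higher and 0 lower at 3 days than in sham (median 1.02), 3 and 0 at 7 days (median 0.39), and 8 and 0 at 14 days (median 0.77). Of all tested genes, 10.9% were higher at 3 days, 4.61% at 7 days and 5.02% at 14 days, and the medians were -0.03, 0.01 and -0.05. Monocyte and endothelial marker sums were also above sham in every 3-day and 14-day library, and their part in these values was not tested. The tetraspanin Cd9 had 40.6 ± 3.2 CPM at 3 days, 54.3 ± 3.8 CPM at 7 days, 66.8 ± 4.7 CPM at 14 days and 19 ± 2.1 CPM in sham (SD, n = 3 each). The log2 fold changes of Cd9 over sham were 1.09 ± 0.18 at 3 days (adjusted p = 0.00081), 1.51 ± 0.18 at 7 days (adjusted p = 0.000236) and 1.81 ± 0.18 at 14 days (adjusted p = 3.18e-05). Plaur, the urokinase receptor, rose by 2.41 ± 0.30 at 3 days (adjusted p = 0.00011), Slc3a2 by 1.41 ± 0.22 (adjusted p = 0.000488) and the hyaluronan receptor Cd44 by 1.80 ± 0.35 (adjusted p = 0.00241).

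Among 27 tested ligands, 16 were higher and 2 lower at 3 days than in sham (median 1.69), and 17 were lower and 0 higher at 7 than at 3 days (median -1.76). Over all tested genes, 10.9% were higher and 9.17% lower at 3 days than in sham (median -0.03), and 7.52% were lower and 5.85% higher at 7 than at 3 days (median 0.01). Fn1, the ligand of the Itga5 receptor, had 1071 ± 260 CPM at 3 days, 261 ± 134 CPM at 7 days, 440 ± 22.5 CPM at 14 days and 36.3 ± 31.1 CPM in sham (SD, n = 3 each). Spp1, the gene of osteopontin and a ligand of Itgav and Itga9 receptors, had 585 ± 139 CPM at 3 days, 177 ± 89.6 CPM at 7 days, 210 ± 49.6 CPM at 14 days and 10.7 ± 4.4 CPM in sham. Their log2 fold changes at 3 days over sham were 4.91 ± 0.53 for Fn1 (adjusted p = 2.92e-05) and 5.81 ± 0.44 for Spp1 (adjusted p = 1.51e-06). Thbs1 rose by 5.55 ± 0.40 at 3 days (adjusted p = 1.45e-06) and was lower at 7 than at 3 days by -3.69 ± 0.35 (adjusted p = 0.000128). Vwf, a ligand made by endothelium, had 86.3 ± 33.2 CPM at 3 days, 8.41 ± 3.14 CPM at 7 days, 36 ± 3.1 CPM at 14 days and 7.49 ± 6.96 CPM in sham, beside the endothelial sums given above. Monocyte markers summed to 436 to 507 CPM at 3 days, 162 to 243 CPM at 7 days and 120 to 122 CPM in sham. Fibroblast and pericyte markers summed to 388 to 991 CPM, 66.4 to 167 CPM and 68.9 to 489 CPM in the same groups. The part of RNA from these cells and from endothelium in the ligands' values was not tested.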

How the data were processed

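Nuclear RNA of 12 libraries was amplified, made into libraries and read in pairs, per the labels' protocols. The deposited whole-number counts per Ensembl gene were made with featureCounts 1.4.6-p3 on GRCm38 (mm10), per the submitters' processing notes. Aligner, strandedness and treatment of multi-mapped reads: not given in the sources used here. RPKM values deposited by the authors, scaled by gene length and depth, were used only to set genes beside each other.

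Counts were tested with edgeR 4.0.16 (R 4.3.3): genes were kept by filterByExpr, scaled by TMM and fitted with the quasi-likelihood model over all 12 libraries in 4 groups, with 3 libraries in each. P-values were adjusted by Benjamini-Hochberg over 18451 genes at 0.05, and SE is the log2 fold change over the root of its F statistic. The code was tested on simulated counts. Alternatives were DESeq2 1.42.0, its size factors, no filter, a filter of at least 1 CPM in 3 libraries with a mean of 5 CPM, a fit of only the 2 groups compared, a replicate block, and each library left out. Every member is named, the called ones by library, and up to 4 genes per wider list were named by the smallest adjusted p at 3 days. The members and lists were chosen with earlier results of these data known. Gene positions are from GENCODE on GRCm38. Deviations of same-numbered libraries correlated at most at 0.0593, which with 3 libraries a group cannot settle whether they are pairs. The main fit did not treat numbers as pairs, and the replicate block did.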

Additional observations from a re-analysis of the deposited data

Results flagged for a closer look

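For 15 members, the change against sham differed between times after injury by a direct test of the difference (edgeR's quasi-likelihood test, adjusted over all genes). The comparisons with sham share its libraries, and the values here are the direct differences between times. At 7 over 3 days the log2 difference was -3.38 for Itga1, -2.90 for Itga7, -2.86 for Itga3, -2.42 for Itgb4, -1.35 for Fermt2, -1.19 for Vcl, -1.15 for Itga5, -0.92 for Ptk2 and -0.72 for Tln1. It was 1.06 for Itga9, 0.90 for Tln2, 0.69 for Itgam and 0.68 for Itgb3. At 14 over 7 days it was 3.46 for Itga1 and 1.52 for Fermt2. At 14 over 3 days it was -0.92 for Fermt3, -0.86 for Itga10 and -0.79 for Tln1.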

How the results depend on the processing

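Of 539 alternative values for the 30 calls, none reversed, 408 stayed past the threshold and 131 did not. DESeq2 and its size factors kept all 30 calls, the stricter filter all 29 it could test, no filter 28 and the fit of only the 2 groups compared 24. With 1 library left out in turn, 8 calls always held and 22 were lost at least once. Of 125 alternative counts, 73 stayed within 1.5 times. The count at 14 over 3 days was 14 in the fit of only the 2 groups and 0 to 4 with 1 library left out, where a group of 2 is assumed to vary like the others. At 14 over 7 days it was 6 with no filter, 10 in the fit of 2 groups, 8 with DESeq2 and 0 to 8 with 1 library left out. Against sham, it was 5 to 11 at 3 days with 1 library left out. At 7 days it was 10 with no filter, 0 in the fit of 2 groups, 9 with DESeq2 and 1 to 8 with 1 library left out. At 14 days it was 1 in the fit of 2 groups and 1 to 9 with 1 library left out. At 7 over 3 days it was 2 to 19, and for any difference 9 to 20, with 1 library left out. The cause was not tested.

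Over 13 same-numbered pairs the correlation of deviations ran from -0.333 to 0.0593, with 0 over 0.1, and 2 libraries correlated best with their own number. The labels do not say whether same-numbered libraries share a day or litter. With 3 libraries a group, these correlations cannot settle it. With the replicate block, the count was 10 at 3 days over sham and 7 at 14 over 7 days, and 25 of the 30 calls held. The 5 that did not were Ptk2 at 7 over 3 days (-0.78, adjusted p = 0.12), Itga10 at 14 over 3 days (adjusted p = 0.0658) and, over sham, Itgal (adjusted p = 0.0706) and Itgb1 (adjusted p = 0.0552) at 14 days and Ptk2b at 7 days (adjusted p = 0.085). With the block, the log2 fold change at 7 over 3 days was -4.48 for Itga1, -3.74 for Itga3, -3.54 for Itga7 and -3.66 for Itgb4, and that of Itga1 at 14 over 7 days was 4.79. With 3 libraries a group and 4003480 to 10670804 counts each, members under about 10 CPM rest on few reads, which limits their precision.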
